A study of Mus musculus with 8 samples.

Results

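Carbonic anhydrases are zinc enzymes that interconvert carbon dioxide and water with bicarbonate and a proton. Their isoforms sit in the cytosol, in mitochondria or on the cell surface, and a few relatives have lost the catalytic site. In secretory epithelia they supply bicarbonate and protons to the transporters that set the pH and volume of the luminal fluid. Here 10 carbonic anhydrase genes (Car2, Car3, Car4, Car5b, Car8, Car9, Car11, Car12, Car13 and Car14) were followed, chosen by gene symbol among 24346 symbols in the deposited tables. The choice was made with their values in mutant and control libraries already known, so the differences of these 10 genes are descriptions and carry no p-values.

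The RNA came from mouse uterine epithelium and was sequenced as 8 libraries. Of these, 5 came from Smad2/3 cKO mice, which were homozygous for floxed Smad2 and floxed Smad3 and carried the Pgr-cre knock-in allele, and 3 came from mice labelled control, whose alleles the labels do not spell out. In Smad2 the loxP sites flanked exons 9 and 10, in Smad3 exons 2 and 3, and both groups had the same mixed C57BL/6/129S6/SvEv background. SMAD2 and SMAD3 carry TGF-beta and activin signals to the nucleus. Deletion is limited to cells that express Cre from the progesterone receptor gene, which the labels place in the uterus, oviduct, ovary, mammary gland and pituitary after birth, and no age is stated for the mice in the sources used here. Nothing says that each library is a separate mouse, so the spread between libraries may be technical in part.

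Values are FPKM, sequenced fragments scaled to transcript length and library depth, summed per gene and put on 1 scale between libraries (scaled FPKM). Depth, estimated from the width of the deposited intervals, was about 43000000 to 53600000 mapped fragments in cKO libraries and 51000000 to 54000000 in control libraries. Smad2 was at 3.03 to 4.02 scaled FPKM in cKO libraries, against 5.69 to 6.35 in control libraries, a log2 fold change of -0.63 ± 0.10 (SE; limma adjusted p = 0.0055). Smad3 ranged from 20.6 to 42.6 against 25.6 to 31.5 and did not pass (adjusted p = 0.837), and a whole-gene value also counts exons outside the floxed parts. The 10 epithelial markers summed to 3289 to 5851 scaled FPKM in cKO libraries and 4308 to 4690.3 in control libraries, with Epcam at 378 to 523 against 463 to 488. Neutrophil, smooth muscle and stromal fibroblast markers varied between libraries, and their values are given with Car9 and Car4. Foxa2, a gland marker, was higher in cKO, at 5.26 ± 0.785 against 0.79 ± 0.301 scaled FPKM (SD; called, passing the filter through cKO libraries alone), while the secreted gland markers were at or near 0. By their titles, cKO 1 and cKO 2 were numbered apart from the remaining 6 libraries, and this split is called the title series below.

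A gene was tested when it had at least 1 scaled FPKM in at least 3 libraries, which 11315 genes and 6 of the 10 carbonic anhydrase genes did. Of these 6, Car9 was called lower and Car4 higher in cKO (limma, Benjamini-Hochberg adjusted p below 0.05 over all tested genes), where 14.3% of all tested genes were called, 6.98% lower and 7.27% higher. Car4 passed the filter through its cKO values alone, and nothing is read from this share. Over all tested genes 823 were higher and 790 lower in cKO, and 510 and 1662 with TPM, for which the median log2 fold change over the genes tested was -0.20 in place of -0.005. Leaving out control 2 gave 238 higher and 186 lower genes, leaving out control 3 gave 243 and 176, and leaving out control 1 gave 437 lower ones. Car2, Car5b, Car12 and Car13 were tested and not called, and Car3, Car8, Car11 and Car14 were too low to test.

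**Figure D1:**
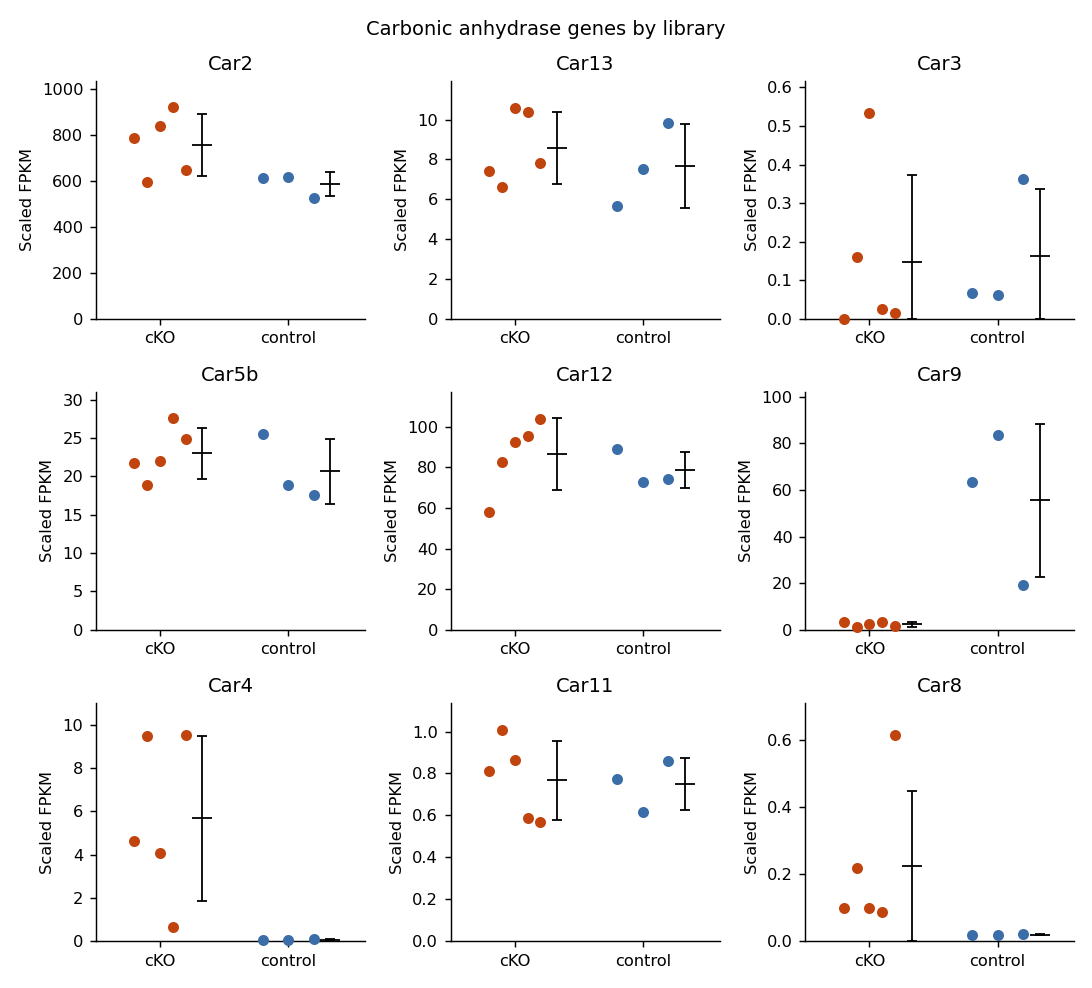
Scaled FPKM (vertical axes, each from 0) of 9 carbonic anhydrase genes in the 5 cKO libraries (orange) and the 3 control libraries (blue); bars give the mean and SD, with the lower end stopped at 0. Car9 lies at 1.07 to 3.31 in cKO libraries against 19.4 to 83.6 in control libraries, Car4 and Car8 are higher in every cKO library than in any control library, and the groups overlap in the other 6 panels.

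The cell-surface enzymes came in 3 detected forms. Car9 encodes carbonic anhydrase IX, a transmembrane enzyme with its active site outside the cell and a well-known target of the hypoxia-inducible factors. It was measured as 1 transcript, NM_139305, on mm10 chromosome 4 from 43507026 to 43513725. Its values were 3.31, 1.07, 2.58, 3.13 and 1.43 scaled FPKM in cKO 1 to 5, and 63.4, 83.6 and 19.4 in controls 1 to 3. The highest cKO library lay below the lowest control library, although the controls themselves spread widely and control 3 was much lower than the other two. Groups that do not overlap were seen for 24.6% of all tested genes, 12.9% lower and 11.7% higher in cKO, and among the 6 tested carbonic anhydrase genes for Car9 and Car4. The mean was 2.30 ± 1.01 in cKO (SD, n = 5) against 55.5 ± 32.8 in control (SD, n = 3), which is 24.1-fold lower by group means. The log2 fold change was -3.92 ± 0.45 (SE), on the log2(scaled FPKM + 1) scale that is used for all fold changes below and that understates changes of low genes.

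About 2111 to 8710 fragments lay behind each control value and 96 to 321 behind each cKO value. The authors' 95% intervals, put on the same scale, reached at most 3.68 in a cKO library and started at 18.6 in the lowest control library. These intervals cover counting error only and not the spread between libraries. In rank, Car9 stood above 14.5% of tested genes by its cKO mean and above 90.9% by its control mean. In the RefSeq annotation its span shares 1722 bases with Arhgef39, which was low in both groups at 1.97 against 1.81 scaled FPKM, and 4 bases with Tpm2. The log2 fold change was -3.87 without cKO 1 and cKO 2 and lay between -4.54 and -3.52 over the 16 alternatives. Smooth muscle markers (8 genes, 7 tested, 0 called) had a median log2 fold change of -1.03. They summed to 17.7 to 112 scaled FPKM in cKO libraries and to 333, 59.3 and 95.8 in controls 1 to 3. Car9 in these controls was 63.4, 83.6 and 19.4. Stromal fibroblast markers (12 genes, none at 0 in all libraries, 7 tested, 0 higher, 1 lower, median log2 fold change -0.72) summed to 57.4 to 252 in cKO libraries and 115 to 258 in control libraries. Among them Nr2f2, a stromal transcription factor, fell to 5.47 ± 0.694 in cKO (SD, n = 5) against 8.54 ± 1.09 in control (SD, n = 3; limma adjusted p = 0.0175), a call lost without control 1, without control 2 and without cKO 1 and cKO 2. The part of muscle and stromal cells in the Car9 values was not tested. In bulk RNA, fewer cells of a type and less RNA per cell cannot be told apart.

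The bases just before the start of Car9 hold the core letters of the hypoxia response element, ACGTG, and are shown with those of Car12, another known hypoxia-inducible member, and Car4, which moved the other way. Each line gives the last 100 bases before the RefSeq start on GRCm38.p6, 5′ to 3′ on the strand of the gene, which is the plus strand for all 3, with ACGTG or its complement CACGT in capitals.
Car9, chr4:43506926-43507025: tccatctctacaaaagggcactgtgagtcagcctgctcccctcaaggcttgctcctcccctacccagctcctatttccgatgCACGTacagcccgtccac
Car12, chr9:66713586-66713685: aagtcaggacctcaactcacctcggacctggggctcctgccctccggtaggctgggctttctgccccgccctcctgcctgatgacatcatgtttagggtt
Car4, chr11:84957654-84957753: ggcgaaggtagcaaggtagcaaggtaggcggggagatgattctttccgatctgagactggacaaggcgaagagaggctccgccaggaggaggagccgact
The Car9 match begins 18 bases before the start. In the whole window of 250 bases before the start, searched on both strands, ACGTG was in 16.6% of 32851 mouse promoters. Among the 6 members with a promoter in the table it was present for Car9 and Car14 and not for Car4, Car5b, Car11 or Car12. The letters CAGAC, the core of the element that SMAD3 and SMAD4 bind, were in 42.2% of promoters and in those of Car4, Car5b, Car9 and Car12. A match is a description of letters only.

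Car12 encodes carbonic anhydrase XII, the other transmembrane form with an outward active site, known from kidney, colon and endometrium. Its values were 58.1, 82.6, 92.5, 95.2 and 104 scaled FPKM in cKO 1 to 5, and 88.9, 72.6 and 74.5 in controls 1 to 3. The groups overlapped, and cKO 1 was the lowest of the 8 libraries. The mean was 86.5 ± 17.6 in cKO (SD, n = 5) against 78.7 ± 8.91 in control (SD, n = 3), and the log2 fold change of 0.11 ± 0.18 (-0.09 with TPM) was smaller than its error. Of its 2 annotated transcripts, NM_178396 held the signal and NM_001306148 was listed at 0 in all 8 libraries.

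Car4 encodes carbonic anhydrase IV, which is held on the outer membrane by a lipid anchor and is known from capillary endothelium, kidney and lung. Its values were 4.64, 9.49, 4.09, 0.646 and 9.54 scaled FPKM in cKO 1 to 5, and 0.0486, 0.0585 and 0.0728 in controls 1 to 3. All cKO libraries were above all controls, but cKO 4 was far below the other cKO libraries. The control values rested on about 3, 4 and 5 fragments, where cKO 4 had about 40 and the other cKO libraries 223 to 539. The mean was 5.68 ± 3.82 in cKO (SD, n = 5) against 0.06 ± 0.0122 in control (SD, n = 3). The ratio of the means was 94.7, and the exact Poisson 95% interval of the 12 control fragments, which covers counting error only, puts it between 54.2 and 183. The log2 fold change was 2.39 ± 0.55, and 4.73 with a pseudocount of 0.1, so its size depends on that constant. The call was lost when any 1 of the 3 controls was left out (2.38 to 2.39) and with the title series as a term (2.07), and without cKO 1 and cKO 2 Car4 did not pass the filter.

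Neutrophil markers differed between libraries too. Their sum over the 7 genes found in the tables (of 8 listed, none at 0 in all libraries) was 1256, 1173, 1978, 297 and 1789 scaled FPKM in cKO 1 to 5, and 209, 248 and 403 in controls 1 to 3. One of the 7, Retnlg, was called higher and none lower. Retnlg, expressed by neutrophils, was at 2.39 to 76.5 scaled FPKM in cKO libraries and 0.709 to 1.57 in control libraries, and its call was lost in 9 of 16 alternatives, each control left out among them. The cKO library with the least Car4, cKO 4, also had the lowest neutrophil sum of the cKO libraries. S100a9 was the largest part of the sum in every library. Among the markers, S100a8, S100a9, Retnlg, Mmp8 and Mmp9 were lowest of the cKO libraries in cKO 4. Csf3r, at 9.82 in cKO 4, was lower in cKO 1 (7.81) and cKO 5 (9.24). Cxcr2, at 7.77 in cKO 4, was lower in cKO 5 (7.23). Csf3r and Cxcr2 were both highest in cKO 2. The highest neutrophil sum was in cKO 3, where Car4 was 4.09, below cKO 1, cKO 2 and cKO 5. Control 3 had a higher sum than cKO 4, 403 against 297, and less Car4, 0.0728 against 0.646. The part of neutrophils in the Car4 values was not tested. Endothelial markers (8 genes, 3 tested, 0 called) summed to 4.61 to 8.70 scaled FPKM in cKO libraries and 4.67 to 9.52 in control libraries. The part of endothelial cells in the Car4 values was not tested either.

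**Figure D2:**
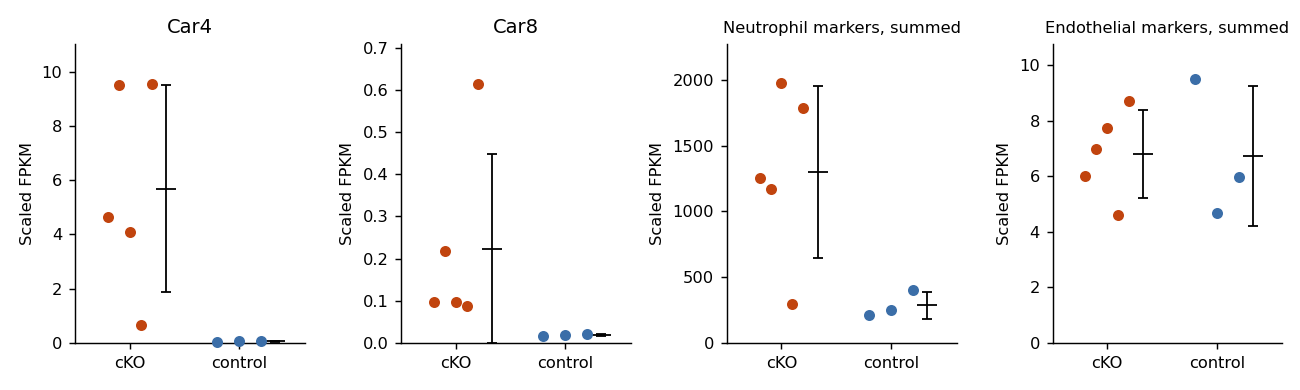
Scaled FPKM (vertical axes, each from 0) of Car4, Car8, 7 summed neutrophil markers and 8 summed endothelial markers in cKO (orange) and control (blue) libraries, with mean and SD (lower end stopped at 0). The neutrophil sum of cKO 4, 297, lies within the control range of 209 to 403. The largest part of the sum is S100a9 in every library, and the markers Csf3r and Cxcr2 are not lowest in cKO 4. Car4 is lowest of the cKO libraries in cKO 4, while Car8 there (0.0867) is close to cKO 1 and cKO 3 (both 0.0982). The highest neutrophil sum is in cKO 3 and the highest Car8 in cKO 5, while Car4 is nearly equal in cKO 2 (9.49) and cKO 5 (9.54).

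Car14, a further transmembrane member, was listed at 0 in all 8 libraries. It shares 825 bases of its span with the expressed gene Aph1a, and an exact 0 may also mark an estimate that failed.

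The make-up of the cell-surface group differed between cKO and control libraries while its totals overlapped. Car4, Car9, Car12 and Car14 together came to 66.0, 93.1, 99.2, 99.0 and 115 scaled FPKM in cKO 1 to 5, and to 152, 156 and 94.1 in controls 1 to 3. The totals overlapped through control 3. Car9 made up 1.15% to 5.02% of this sum in cKO libraries and 20.7% to 53.5% in control libraries. Car12 made up 88.0% to 96.2% in cKO libraries and 46.4% to 79.3% in control libraries. The ratio of Car12 to Car9, which no scaling between libraries can change, was 17.5 to 77.2 in cKO libraries and 0.868 to 3.84 in control libraries. Car9 exceeded Car12 in 1 library, control 2. Car4 made up 0.652% to 10.2% in cKO libraries and at most 0.0774% in control libraries, so in cKO 2, cKO 3 and cKO 5, as in cKO 1, Car4 stood above Car9.

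**Figure D3:**
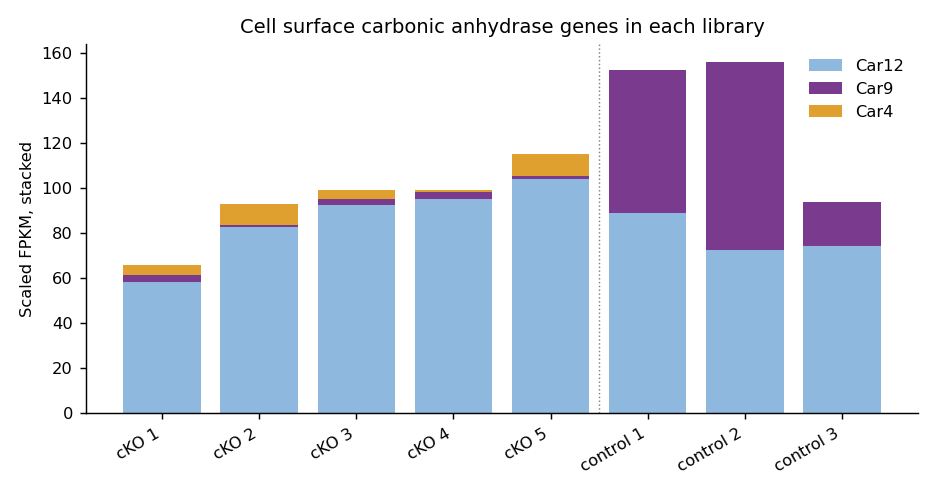
Scaled FPKM of Car12, Car9 and Car4 stacked for each library, the 5 cKO libraries left of the dotted line and the 3 control libraries right of it. Car9 is 20.7% to 53.5% of the cell-surface sum in control libraries and 1.15% to 5.02% in cKO libraries, while Car12 is present at 58.1 to 104 scaled FPKM throughout.

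The cytosolic enzymes were dominated by Car2. Car2 encodes carbonic anhydrase II, the fast cytosolic enzyme that works beside bicarbonate and proton transporters in many secretory cells. Its values were 787, 595, 841, 922 and 648 scaled FPKM in cKO 1 to 5, and 612, 619 and 527 in controls 1 to 3. The groups overlapped through cKO 2, while the other 4 cKO libraries were above every control. The mean was 758 ± 135 in cKO (SD, n = 5) against 586 ± 51.2 in control (SD, n = 3), with a log2 fold change of 0.36 ± 0.18 that stayed between 0.15 and 0.44 over 16 alternatives and was called in none of them. Car2 stood above 99.6% of tested genes by its cKO mean and above 99.5% by its control mean. It held 81.3% to 89.1% of the summed FPKM of the 10 genes in cKO libraries and 76.9% to 81.1% in control libraries. Red blood cells also contain carbonic anhydrase II. Their markers summed to 36.3 in cKO 2, against 4.11 to 12.1 in the other cKO libraries and 19.2 to 29.7 in control libraries. None of 3 tested was called (median log2 fold change -0.95). Slc4a1, the red cell anion exchanger, was listed at 0 in all 8 libraries, which may also mark an estimate that failed. The part of red blood cells in the Car2 values was not tested.

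Car13, a cytosolic isoform in the same chromosome 3 cluster as Car2, was at 7.41, 6.62, 10.6, 10.4 and 7.82 scaled FPKM in cKO 1 to 5, and at 5.65, 7.53 and 9.82 in controls 1 to 3. The groups covered nearly the same range. Its log2 fold change of 0.15 ± 0.19 (-0.03 with TPM and -0.02 without control 1) had no stable sign. Car3, the cytosolic isoform of fat and skeletal muscle with low catalytic activity, did not exceed 0.534 in any cKO library or 0.363 in any control library. About 35 fragments lay behind the highest cKO value, in cKO 3, and about 30 behind the highest control value, in control 3. The 9 adipocyte markers summed to 5.32 to 25.8 scaled FPKM in cKO libraries and 1.34 to 3.8 in control libraries. Cidec and Lep among them were listed at 0 in all 8 libraries, and Adipoq and Plin1 in all 5 cKO libraries. Adipoq was at most 0.0156 in a control library and Plin1 at most 0.00979. Retn and Cfd did not exceed 0.0489 in any library, so the sums rested on Pck1, Fabp4 and Lpl. Of 3 tested, Pck1 was called higher, a call lost without control 2, without control 3 and without cKO 1 and cKO 2. Fabp4, at 9.96 ± 8.67 against 0.597 ± 0.491 (SD), and Lpl, at 1.01 ± 0.942 against 0.912 ± 0.482, were not called. The part of fat cells in the Car3 values was not tested. Car13, Car3 and Car2 lie within 1 stretch of chromosome 3, from 14641727 to 14900770, that also holds Car1, which was listed at 0 throughout, and the levels of these neighbours differed widely in both groups.

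Car5b encodes the mitochondrial isoform found in many tissues, which provides bicarbonate to carboxylases inside the organelle. Its values were 21.7, 18.9, 22.0, 27.6 and 24.9 scaled FPKM in cKO 1 to 5, and 25.5, 18.9 and 17.6 in controls 1 to 3. The ranges overlapped almost fully. The mean was 23.0 ± 3.31 in cKO (SD, n = 5) against 20.7 ± 4.24 in control (SD, n = 3), with a log2 fold change of 0.15 ± 0.15 (-0.04 with TPM).

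Car8 and Car11 encode relatives without the zinc site that catalysis needs, and CAR8 is known to bind the inositol trisphosphate receptor in Purkinje cells. Car8 was at 0.0982, 0.217, 0.0982, 0.0867 and 0.614 scaled FPKM in cKO 1 to 5, and at 0.0165, 0.0179 and 0.0208 in controls 1 to 3. Every cKO library was above every control, at a level far below the filter. The fragments behind these values numbered about 27 to 170 in cKO libraries and 5 to 7 in control libraries. The ratio of the means was 12.1, with a counting interval of 7.66 to 20.4 from the 18 control fragments, and it was 6.79 without cKO 5. The lowest cKO value was that of cKO 4, but its counting interval of 0.0533 to 0.12 overlapped those of cKO 1 and cKO 3. Car11 was at 0.567 to 1.01 in cKO libraries and 0.618 to 0.862 in control libraries, and the groups overlapped.

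By mean scaled FPKM, which is per length, the order of the levels in cKO was Car2, Car12, Car5b, Car13, Car4, Car9, Car11, Car8 and Car3. In control it was Car2, Car12, Car9, Car5b, Car13, Car11, Car3, Car4 and Car8. In cKO the ranges of these neighbours overlapped for Car13 and Car4, Car4 and Car9, Car11 and Car8, and Car8 and Car3. In control they overlapped for Car12 and Car9, Car9 and Car5b, and Car3 and Car4. The remaining neighbours in each order did not overlap, and Car14 was last in both.

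Of the 6 other carbonic anhydrase genes, Car1 and Car10 were listed at 0 in all 8 libraries, Car5a, Car6 and Car7 stayed below 0.211 scaled FPKM, and Car15 was the 1 tested. Car15, a lipid-anchored enzyme in mice, was at 1.11 ± 0.327 in cKO (SD, n = 5) against 1.17 ± 0.417 in control (SD, n = 3) and was not called (limma adjusted p = 0.895). Ptprg, a receptor phosphatase with a carbonic anhydrase-like outer domain, was at 5.07 ± 0.751 against 5.33 ± 0.502 and was not called either (adjusted p = 0.751).

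The transporters that move bicarbonate and protons were described by lists chosen with earlier results of these data known. Over 7 lists 11 of 72 tested genes were called (15.3%), close to the 14.3% of all tested genes, with 3 higher and 8 lower. These shares are no result about the lists, and the single genes are given below. Stromal and muscle markers, given with Car9, were also on the lower side in cKO, and their part in the genes that fell was not tested. Of 11 tested bicarbonate and anion exchangers and channels, 1 rose and 4 fell, and the median log2 fold change was -0.30 against -0.005 for all tested genes. Slc26a1, a sulfate and oxalate exchanger that can carry bicarbonate, rose to 21.9 ± 5.01 scaled FPKM in cKO (SD, n = 5), against 10.8 ± 2.35 in control (SD, n = 3). Its log2 fold change was 0.95 ± 0.20 (limma adjusted p = 0.0176), and the call was lost without control 2, without control 3 and without cKO 1 and cKO 2. Slc4a11, a proton and water transporter of the bicarbonate family, fell to 0.582 ± 0.131 against 1.91 ± 0.387 in control (log2 fold change -0.87 ± 0.13, adjusted p = 0.00506), but it reached 1 scaled FPKM in controls only, so it passed the filter through the group where it is high. With a control left out, or with the filter at 5, it was not tested. Slc4a2, the basolateral chloride-bicarbonate exchanger AE2, fell to 26.1 ± 1.89 against 34.2 ± 1.61 in control (-0.38 ± 0.09, adjusted p = 0.0238), and lost its call without any 1 control. Slc4a7, a sodium-bicarbonate cotransporter, was at 5.87 ± 1.11 against 8.60 ± 0.604 (adjusted p = 0.0424) and lost its call in 11 of 16 alternatives, each control left out among them. Slc26a4, which encodes pendrin, an apical chloride-bicarbonate exchanger, fell to 101 ± 6.12 against 147 ± 32.4 (adjusted p = 0.0453), and lost its call in 10 of 16 alternatives, among them without control 1 and without control 3. It was the last of the 5 by adjusted p and was named after its values were seen. Cftr, the chloride and bicarbonate channel, was not called at 18.1 ± 8.16 against 30.6 ± 11.1 (adjusted p = 0.159).

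Among 18 tested subunits of the vacuolar proton pump, which acidifies organelles and, in some epithelia, the lumen, 1 rose and 1 fell (median log2 fold change 0.09). This is near the 14.3% called over all tested genes and is no result about the list. Both called genes encode forms of the membrane a subunit. Atp6v0a4, the form of kidney and epididymis, was at 20.1, 24.1, 17.0, 31.5 and 23.8 scaled FPKM in cKO 1 to 5, and at 10.0, 1.82 and 2.23 in controls 1 to 3. All cKO libraries were above all controls, and control 1 was above the other controls. The log2 fold change was 2.36 ± 0.41 (limma adjusted p = 0.00872), the value was 2.98 without control 1, and the call was lost without control 3 (2.10). Atp6v0a1, the widely expressed form, fell to 25.8 ± 2.14 in cKO (SD, n = 5), against 45.7 ± 4.97 in control (SD, n = 3), with a log2 fold change of -0.80 ± 0.10 (adjusted p = 0.00263). That of Atp6v0a2 was -0.20 ± 0.19 and did not pass. Of 7 tested sodium-proton exchangers and regulators none rose and 1 fell, the scaffold gene Slc9a3r2, at 16.0 ± 2.26 against 25.7 ± 3.50 (adjusted p = 0.0165; lost without control 2 or control 3). Of 5 tested proton-linked carriers none rose and 1 fell. That was Slc16a7, the high-affinity lactate and pyruvate carrier MCT2, at 0.258 to 1.08 in cKO libraries and 3.22 to 6.62 in control libraries (log2 fold change -1.84 ± 0.23, adjusted p = 0.00216), and cKO 4 was the 1 cKO library to reach 1. The 3 tested acid and bicarbonate sensors were not called, with Gpr4 at 29.3 ± 6.67 against 20.8 ± 2.70 (adjusted p = 0.166) and Ptk2b at 18.0 ± 1.15 against 15.3 ± 1.03 (adjusted p = 0.12). Gpr4 was called without cKO 4 (log2 fold change 0.61).

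**Figure D4:**
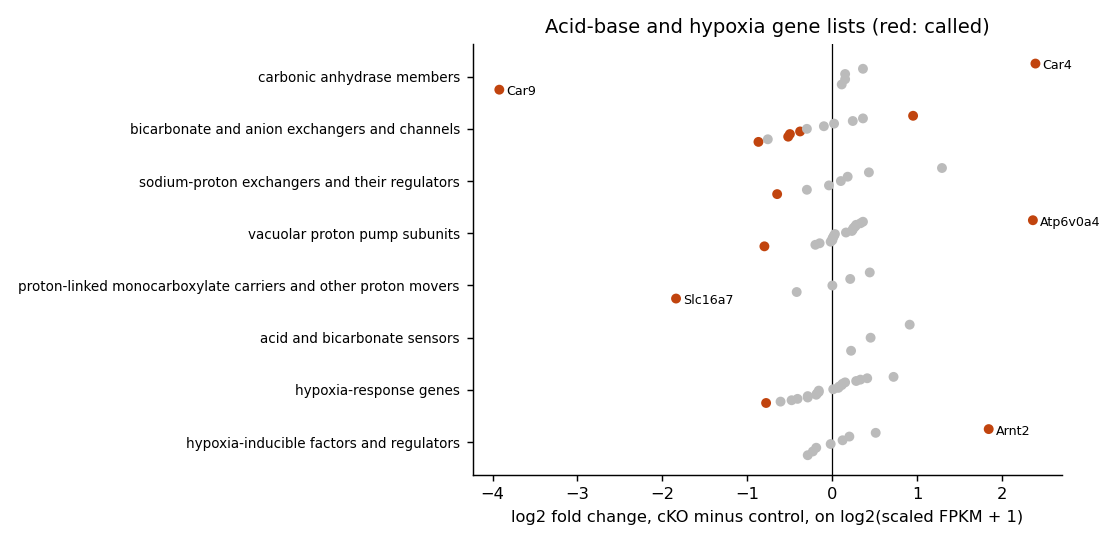
Log2 fold change, cKO minus control, of each tested gene in the carbonic anhydrase group and in 7 lists of bicarbonate, proton and hypoxia genes; red points were called over all tested genes and the vertical line marks 0. In the 7 lists 3 of 72 genes rose and 8 fell, together 15.3% against 14.3% of all tested genes, and Atp6v0a4, Arnt2 and Slc16a7 lie farthest from 0.

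Because Car9 is a standard reporter of hypoxia, 20 other hypoxia-response genes were set beside it. All 20 were tested, none rose and 1 fell, against 7.27% and 6.98% of all tested genes, and their median log2 fold change was -0.07. The gene that fell was Ddit4, a stress-induced inhibitor of mTORC1, at 46.8 ± 12.7 scaled FPKM in cKO (SD, n = 5) against 79.4 ± 10.4 in control (SD, n = 3). Its log2 fold change was -0.78 ± 0.20 (limma adjusted p = 0.0349), and the call was lost in 7 of 16 alternatives, each control left out among them. Egln3, an oxygen-sensing hydroxylase and an abundant member, was at 258 ± 58.9 against 355 ± 53.5 and was not called (adjusted p = 0.159), though it was with TPM (log2 fold change -0.69). The glucose transporter gene Slc2a1 (0.08 ± 0.19), the growth factor gene Vegfa (-0.16 ± 0.29) and the mitophagy gene Bnip3 (0.15 ± 0.28) had log2 fold changes smaller than their errors, whose sign changed under some alternatives. Ankrd37 was the highest of the list at 0.72 ± 0.31 and was not called (adjusted p = 0.152). Car9, at -3.92, lay outside the range of these 20 genes, but Car9 was chosen for its values and the difference was not tested. Of 8 hypoxia-inducible factor genes and regulators, 1 rose, Arnt2, a dimerisation partner of the alpha subunits, to 11.1 ± 4.79 against 2.24 ± 0.713 in control (log2 fold change 1.84 ± 0.29, adjusted p = 0.0055). Hif1a was not called at a log2 fold change of 0.51 ± 0.17 (adjusted p = 0.0782), and was called without cKO 1 and cKO 2 (0.67) and with the title series as a term.

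**Figure D5:**
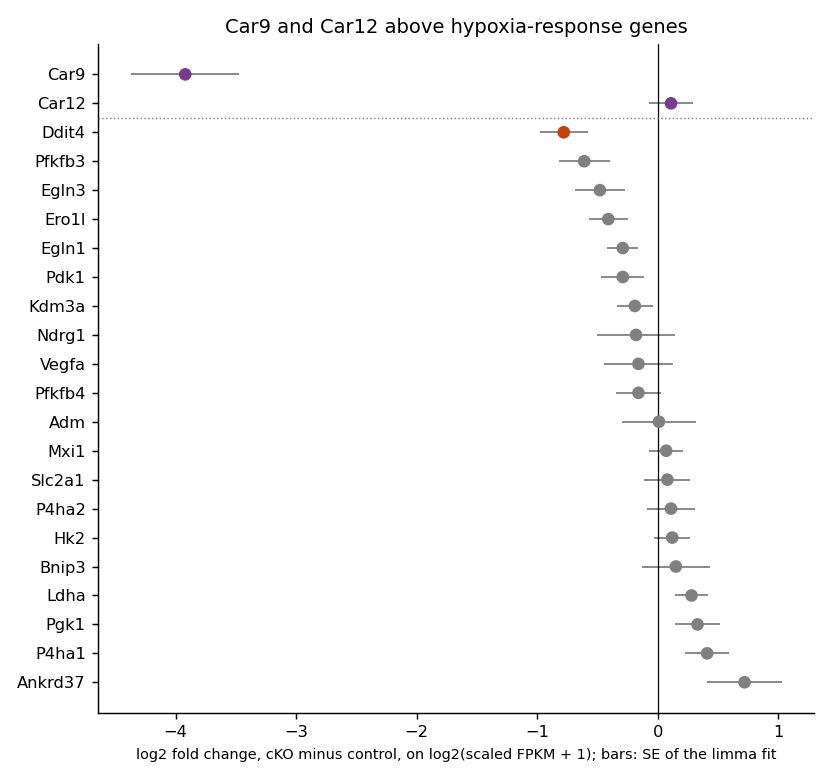
Log2 fold change, cKO minus control, with the SE of the limma fit for Car9 and Car12 (purple, above the dotted line) and 20 hypoxia-response genes (grey, or red where called). The 20 genes lie between Ddit4 at -0.78 and Ankrd37 at 0.72, and Car9 lies at -3.92.

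The genes whose centred log2 profile over the 8 libraries lay nearest to that of Car9, by root mean square difference, were Lrmp (0.59), Il4i1 (0.59) and Acat3 (0.64). Lrmp was at 0.611 to 2.95 scaled FPKM in cKO libraries, and at 36.4, 29.7 and 29.5 in controls 1 to 3. It was even across the controls, where Car9 was not. Il4i1 and Acat3 were listed at 0 in all 5 cKO libraries and passed the filter through the controls alone. For these 2 genes, too, an exact 0 may mark an estimate that failed. Nearest to Car4 were Sytl2 (0.30), Chst1 (0.45) and Cys1 (0.45), over the same 8 libraries. Sytl2 was at 4.16, 8.72, 4.89, 1.53 and 6.66 in cKO 1 to 5, and at 0.0719 to 0.259 in control libraries. As with Car4, it was lowest of the cKO libraries in cKO 4, and so were Chst1 at 2.26 and Cys1 at 1.94. The genes were picked for profiles near that of Car4 over these same libraries, so this likeness follows in part from the choice. These 3 genes passed the filter through cKO libraries alone.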

How the data were processed

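RNA-seq of 5 Smad2/3 cKO and 3 control uterine epithelium libraries was analysed. The deposited values are the authors' FPKM for 34535 RefSeq transcripts in each library, with an interval and a status, per the file headers. The submitters' processing notes name Cufflinks, TopHat, bcl2fastq 1.8.3 and the mm10 build; strand use was not stated, so overlapping genes cannot be told apart by strand. FPKM was summed per symbol, 15 genes without status OK were left out, and each library was divided by its median ratio to the gene-wise geometric means. Genes at 1 or more in at least 3 libraries entered a two-sided limma 3.58.1 test (R 4.3.3; variance trend) on log2 of scaled FPKM plus 1, called at a Benjamini-Hochberg adjusted p below 0.05. This step was tested on simulated data. Fragments and depth were estimated by reading the deposited interval as 2 SD of a Poisson number (single-transcript genes), and are approximate. Promoters come from RefSeq (GRCm38.p6). Members and lists were chosen with earlier results of these data known. Named genes were the members, Smad2, Smad3, the 4 called genes of a list with the smallest adjusted p (where none was called, the 2 most abundant), markers beside a member, and the 3 nearest profiles of tested members with a log2 fold change of at least 1 in size. Slc26a4, Cftr, Atp6v0a2, Hif1a, Egln3, Slc2a1, Vegfa, Bnip3 and Ankrd37 were named after their values were seen. Alternatives were no scaling, TPM, a pseudocount of 0.1, no filter, a filter at 5, no variance trend, leaving out each library, leaving out cKO 1 and cKO 2, and the title series as a term.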

Additional observations from a re-analysis of the deposited data

Results flagged for a closer look

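Car8 was at 0.614 scaled FPKM in cKO 5, where the other 4 cKO libraries lay between 0.0867 and 0.217. The gap to the next library was 0.754 of the range of the group, above the 95% critical value of 0.71 for 5 samples. Chance passes this limit in about 1 of 20 groups, and 9 members with values above 0 were looked at. Without cKO 5 the ratio of the group means, cKO over control, was 6.79 in place of 12.1.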

How the results depend on the processing

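No paired analysis was possible because the number in each library's title is its own and none is shared between the groups; the replicate numbers 1 to 5 and 1 to 3 used here only name libraries. Over 16 alternatives the values of named genes kept their direction and their side of the threshold in 570 cases, lost a call in 58, gained one in 4 and changed sign in 20; the cause was not tested. Counts over all genes were 510 higher and 1662 lower with TPM, and 238 to 935 and 176 to 892 when 1 library was left out. List genes numbered 16 lower with TPM (8 in the report), and 1 to 5 higher and 2 to 6 lower with 1 library left out. The 1 carbonic anhydrase gene called higher, Car4, became 0 with the filter at 5, without cKO 1 and cKO 2, and with the title series as a term, and 0 to 1 with 1 library left out; it did not meet the filter in the first 2. Signs changed with TPM for Car5b (-0.04), Car12 (-0.09), Car13 (-0.03), Slc2a1 (-0.13), Bnip3 (-0.05) and Smad3 (-0.13). Smad3 was at -0.19 without cKO 1 and cKO 2 and with the title series as a term, where Ptprg was at 0.06 and Slc2a1 at -0.14. With 1 library left out the ranges were -0.05 to 0.20 for Smad3, -0.02 to 0.33 for Car13, -0.17 to 0.10 for Car15, -0.04 to 0.18 for Slc2a1, -0.31 to 0.05 for Vegfa, -0.03 to 0.33 for Bnip3 and -0.13 to 0.01 for Ptprg. Depth limits Car3, Car8 and the control values of Car4, which rest on few fragments per library.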
